A study of Mus musculus with 22 samples.

Results

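Chemokines are small secreted proteins that draw leukocytes along a gradient, and their receptors are G-protein-coupled receptors of the migrating cells. The set described here holds every mouse gene named Ccl, Cxcl, Ccr or Cxcr with a number, together with Cx3cl1, Cx3cr1, Xcl1, Xcr1 and the atypical receptors Ackr1 to Ackr4. Of 63 such symbols among the 56748 genes counted, 53 had at least 10 counts in at least 5 of 22 libraries: 33 ligands and 20 receptors. The symbols below that level were Ccl19-ps1, Ccl19-ps3, Ccl21b, Ccl26, Ccl27b, Ccr1l1, Ccr6, Cxcl15, Cxcl17 and Xcr1. Just inside it lay Ccl19, with 10 counts in 5 libraries, and Ccr8 and Xcl1 in 6, and just outside lay Cxcl17 and Xcr1 in 3. Reads from near-identical copies (Ccl21a with Ccl21b and Ccl21c, Ccl27a with Ccl27b, Ccl19 with its pseudogenes) may have been divided between them by the counting, so the levels of Ccl21a, Ccl27a and Ccl19 are uncertain.

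RNA came from 22 primary tumours of the mouse buccal mucosa, used to model squamous carcinoma of the head and neck, and was sequenced in bulk. All 22 tumours carried floxed Trp53 and Rosa26 LSL-PIK3CA(H1047R) on both alleles, recombined by a tamoxifen-inducible Cre under Krt5, a gene of basal keratinocytes, after local injection of 4-hydroxytamoxifen. The groups are Keap1-wildtype untreated (n = 6), Keap1-wildtype with benzo[a]pyrene, a tobacco carcinogen abbreviated BAP (n = 6), Keap1-deleted untreated, with floxed Keap1 (n = 5), and Keap1-deleted BAP (n = 5). Trp53 deletion and activated PIK3CA are thus shared by every group, and the labels give neither age nor sex nor whether any 2 tumours shared an animal, so p-values measure the spread between these libraries. The series was made to study the KEAP1 and NRF2 pathway in radioresistance and in the tumour immune microenvironment, and each comparison below asks how chemokine RNA differed by Keap1 genotype or by BAP.

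Chemokine families differ in the cells they attract. Ligands of Cxcr2 are known for recruiting neutrophils, Ccr2 ligands for monocytes, Cxcr3 ligands for interferon-driven T and natural killer cell entry, and Ccl19, Ccl21 and Cxcl13 for organising lymphoid tissue. Cxcl12 is made largely by stromal cells and is read by Cxcr4, while Ccl20, Cxcl14 and Ccl27a are known products of epithelium. In bulk tumour RNA, fewer cells of a type and less RNA per cell cannot be told apart.

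Total counts were 29235010 to 39862777 per library. Keap1, as a gene-level count that may include exons outside the deleted part, was 45.8 to 78.9 CPM (read counts relative to library size, the usual CPM unit, scaled by the TMM method) in the wildtype libraries and 9.45 to 36.4 CPM in the deleted ones, except the library labelled Keap1-deleted BAP 2, which had 65.6 CPM. Nqo1, an NRF2 target, was 177 CPM in that library, above the 19.4 to 85.8 CPM of the wildtype libraries, whereas Keap1-deleted BAP 3 and 4, at 19.4 and 54.3 CPM, lay in the wildtype range or at its edge. Keap1-wildtype untreated 6 stood apart from its group, at 162 on the first principal component against -141 to -15.1 for the other 5. Summed keratinocyte markers were 47560 to 128800 CPM in Keap1-wildtype BAP tumours but 86.4 to 4100 CPM in Keap1-deleted BAP tumours and 1480 CPM in Keap1-wildtype untreated 6, low values for libraries labelled as squamous carcinoma. The 12 markers include Krt5, Krt14 and Trp63, and none was at 0 in every library of a group.

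Promoter sequence is shown for some of the ligands whose levels the results return to: the neutrophil attractants Cxcl1, Cxcl2 and Cxcl3, the interferon-inducible Cxcl9 and Cxcl10, and Ccl6 and Ccl9, myeloid ligands of Ccr1. RefSeq windows on GRCm38.p6 were matched by symbol for 40 of the 53 members. Each line gives bases before the RefSeq start, 5′ to 3′ on the gene's strand, 250 for Cxcl9 and Cxcl10 and 150 for the others. Capitals mark matches, on either strand, to an NF-kB core (GGGANNTTC), an interferon response element core (GAAANNGAA), a xenobiotic response element core (GCGTG) or an antioxidant response element core (TGACNNNGC).
Cxcl1, GRCm38.p6, chr5:90891095-90891244, strand +: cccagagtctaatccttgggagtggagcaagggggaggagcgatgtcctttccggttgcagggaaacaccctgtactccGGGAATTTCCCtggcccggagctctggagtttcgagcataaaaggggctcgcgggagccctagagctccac
Cxcl2, GRCm38.p6, chr5:90903749-90903898, strand +: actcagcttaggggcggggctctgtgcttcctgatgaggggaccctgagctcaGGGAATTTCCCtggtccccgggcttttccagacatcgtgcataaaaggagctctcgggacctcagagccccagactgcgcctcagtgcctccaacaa
Cxcl3, GRCm38.p6, chr5:90785951-90786100, strand +: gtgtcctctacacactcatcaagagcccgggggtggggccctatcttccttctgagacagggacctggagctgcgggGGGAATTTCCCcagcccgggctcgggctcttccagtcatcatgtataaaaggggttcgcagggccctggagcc
Cxcl9, GRCm38.p6, chr5:92328080-92328329, strand -: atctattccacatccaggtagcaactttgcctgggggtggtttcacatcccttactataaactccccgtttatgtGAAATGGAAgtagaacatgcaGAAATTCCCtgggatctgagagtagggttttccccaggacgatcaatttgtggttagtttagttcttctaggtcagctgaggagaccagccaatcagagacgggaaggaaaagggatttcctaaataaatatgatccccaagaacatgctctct
Cxcl10, GRCm38.p6, chr5:92348890-92349139, strand -: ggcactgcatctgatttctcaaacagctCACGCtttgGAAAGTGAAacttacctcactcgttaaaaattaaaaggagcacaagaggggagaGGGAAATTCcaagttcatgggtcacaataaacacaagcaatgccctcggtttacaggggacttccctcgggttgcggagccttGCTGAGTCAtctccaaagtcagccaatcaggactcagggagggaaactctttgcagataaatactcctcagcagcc
Ccl6, GRCm38.p6, chr11:83593088-83593237, strand -: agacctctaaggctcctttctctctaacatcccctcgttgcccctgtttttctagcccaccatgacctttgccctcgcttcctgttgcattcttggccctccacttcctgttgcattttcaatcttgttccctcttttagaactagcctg
Ccl9, GRCm38.p6, chr11:83578637-83578786, strand -: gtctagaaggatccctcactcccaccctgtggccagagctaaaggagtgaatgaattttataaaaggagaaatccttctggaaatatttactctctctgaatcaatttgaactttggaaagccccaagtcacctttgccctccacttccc
The capitals of Cxcl1, Cxcl2 and Cxcl3 are the same run of letters, which holds the NF-kB core on both strands as overlapping matches and begins 71, 97 and 73 bases before the start. Cxcl2 also held xenobiotic cores 172 and 165 bases before its start, outside the bases printed. Cxcl9 held an interferon element core 175 and an NF-kB core 154 bases before its start, and Cxcl10 held them 213 and 159 bases before, with a xenobiotic core at 222 and an antioxidant core at 76. In the 250 bases upstream, the NF-kB core was found in 8 of the 40 members with a window, 20.0%, against 3.7% of 27025 genes. The interferon core was found in 8 (20.0% against 8.2%), the xenobiotic core in 14 (35.0% against 30.9%) and the antioxidant core in 4 (10% against 11.5%). The windows printed for Ccl6 and Ccl9 held none of the 4 sets of letters. A match is a description of letters and not evidence of binding.

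Chemokine RNA was a small and uneven part of each library. Member genes took 0.0132% to 0.0487% of counts in Keap1-wildtype BAP tumours and 0.180% to 0.361% in Keap1-deleted BAP tumours, and these groups did not overlap. In Keap1-deleted untreated tumours the share was 0.0698% to 0.239%. Keap1-wildtype untreated tumours had a median of 0.0417%, with 0.340% in library 6. That library held the highest value of its group for 35 of 53 members (66.0%), against 27.4% of all genes tested. Ligands summed to a median of 270 CPM (109 to 450) in Keap1-wildtype BAP tumours and 1617 CPM (1271 to 2449) in Keap1-deleted BAP tumours. Receptors summed to 57.2 CPM (46.0 to 71.1) and 326 CPM (296 to 816).

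**Figure D1:**
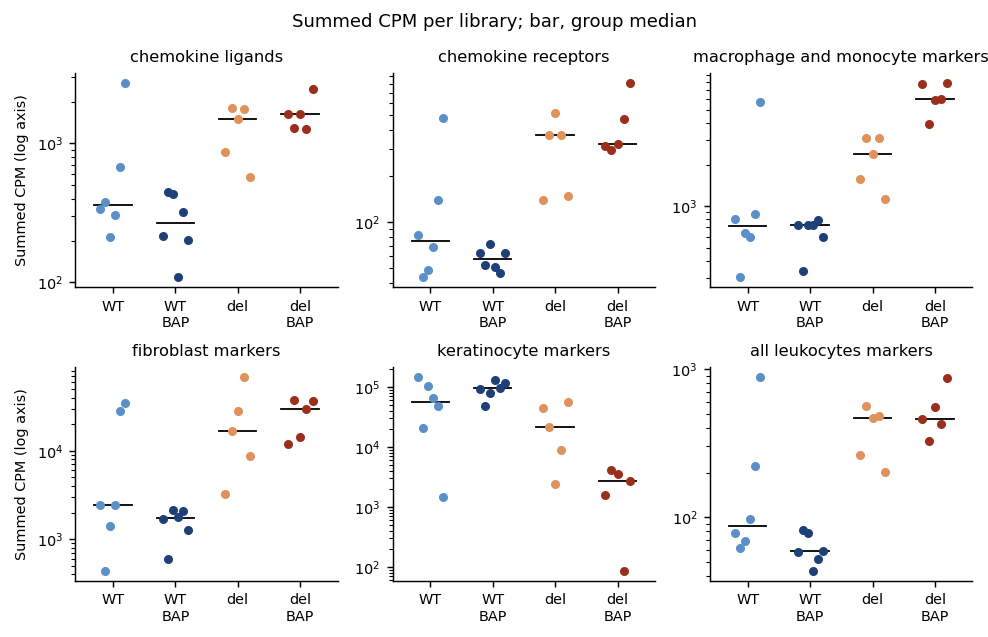
Summed CPM per library on log axes for the 33 ligands, the 20 receptors and 4 marker lists, in Keap1-wildtype (WT) and Keap1-deleted (del) tumours without and with BAP; each point is 1 library and the bar is the group median. Ligands lie between 1271 and 2449 CPM in Keap1-deleted BAP tumours, above all Keap1-wildtype BAP tumours, and the highest Keap1-wildtype untreated point in the ligand panel is library 6.

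Per kilobase of the deposited effective length, which allows levels of different genes to be compared, Cxcl14 led in Keap1-wildtype BAP tumours at 46.2 ± 27.7 CPM per kb (SD, n = 6). Ccl2 at 13.4 ± 13.1 and Cxcl16 at 12.7 ± 6.43 CPM per kb followed, and those neighbours did not differ beyond their spread. In Keap1-deleted BAP tumours the order began with Ccl7 at 134.7 ± 69.8, Ccl2 at 108.0 ± 67.6, Ccl21a at 88.1 ± 86.7 and Ccl6 at 77 ± 55.6 CPM per kb (SD, n = 5), again with spreads wider than the steps between neighbours. Keap1-deleted untreated tumours began with Ccl21a at 162 ± 136, Cxcl14 at 115 ± 78.2 and Cxcl5 at 112 ± 70.1 CPM per kb. Ccr1 was the first receptor in the Keap1-deleted BAP order, at 42.7 ± 24.8 CPM per kb and rank 10.

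The comparison of Keap1-deleted with Keap1-wildtype tumours under BAP gave most of the member calls. In all, 21 members passed an adjusted p of 0.05 (edgeR quasi-likelihood test, Benjamini-Hochberg over 19202 genes): 20 were higher in Keap1-deleted tumours and 1, Ccl20, was lower. Members called made up 39.6% of the 53, close to the 40.3% of all genes called. Divided by direction, 37.7% of members were higher against 20.3% of all genes, and 1.89% were lower against 20.0% of all genes. Among the 20, Ccl19 reached the count level for membership only in Keap1-deleted libraries, and Xcl1 only in those and Keap1-wildtype untreated 6. The calls of both genes are therefore not independent of the filter that made them members. The median log2 fold change was 1.52 over members and -0.001 over all genes tested. Scaled by library totals alone, the median of all genes moved to 0.444 and that of members to 1.98, 23 members were higher and 1 lower, and 73.4% of all called genes were higher instead of 50.3%. Without the library labelled Keap1-deleted BAP 2, 21 members were called, 20 of them the same, with Ackr1 in and Ccl5 out. Levels of 14 members lay higher in every Keap1-deleted BAP library than in any Keap1-wildtype BAP library, 26.4% of members against 13.8% of all genes. Ccl20 alone lay wholly lower, 1.89% against 13.7% of all genes.

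**Figure D2:**
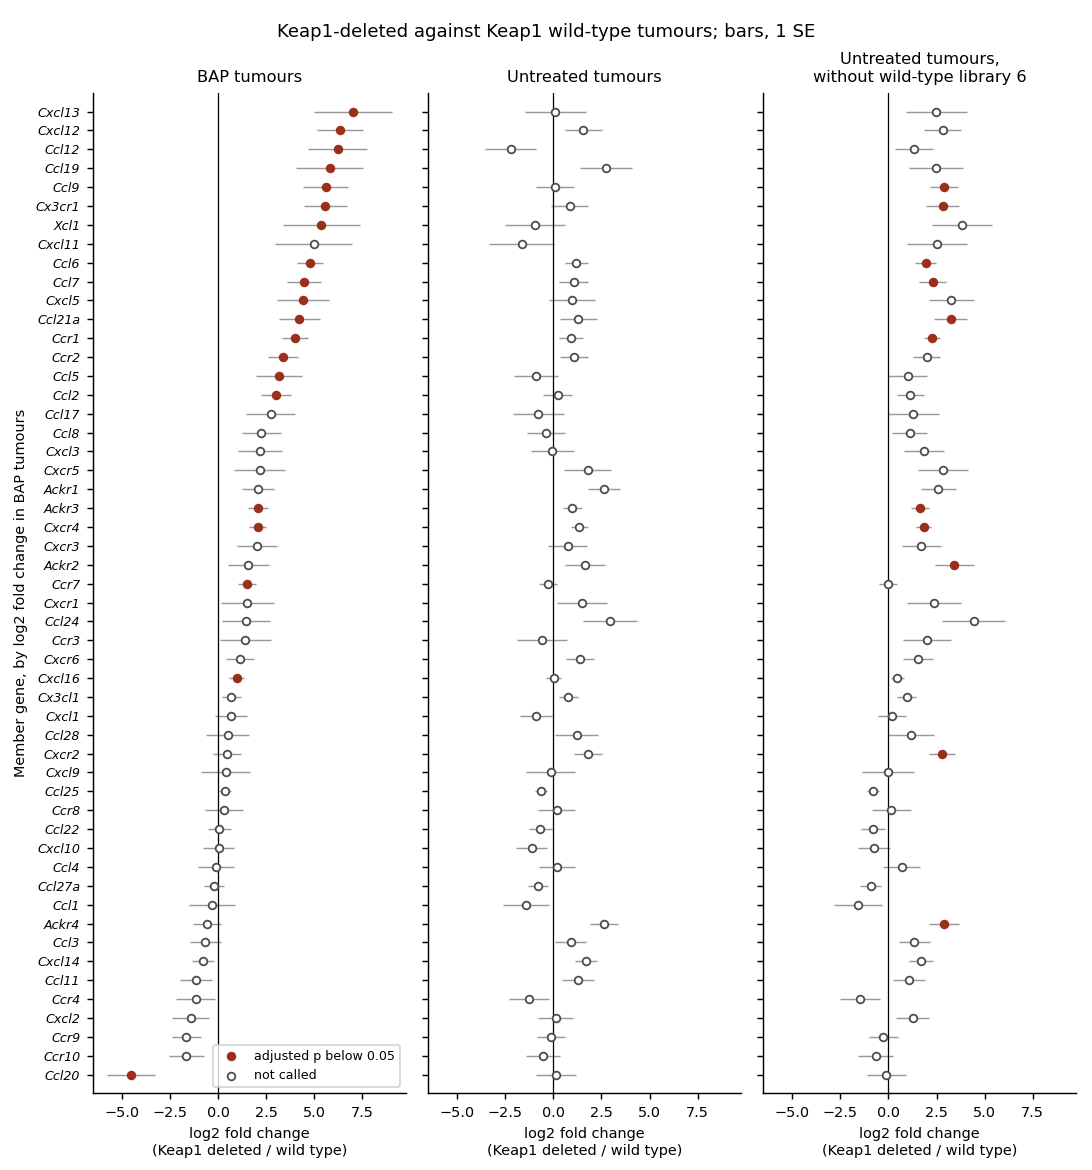
Log2 fold change (Keap1 deleted over wild type) with 1 standard error for 52 members, ordered by the value in BAP tumours, in BAP tumours, in untreated tumours, and in untreated tumours without Keap1-wildtype library 6. Filled points passed an adjusted p of 0.05: 20 in BAP tumours, 0 in untreated tumours and 11 without library 6.

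Among ligands of Ccr2, the receptor of inflammatory monocytes, Ccl2, Ccl7 and Ccl12 rose and Ccl8 did not pass in the main edgeR fit. That fit used all libraries, TMM scaling, the filterByExpr filter and no covariate. Ccl7 was 93.6, 97.6, 67.8, 75.0 and 205 CPM in the 5 Keap1-deleted BAP tumours and 1.98 to 9.35 CPM (median 4.77) in the 6 Keap1-wildtype BAP tumours, with no overlap. Its log2 fold change was 4.46 (SE 0.864, adjusted p = 0.000756, higher in 5 of 5 libraries). Ccl2 was 120, 94.9, 78.6, 65.4 and 256 CPM against 2.02 to 38.8 CPM (median 8.95), a log2 difference of 3.01 (standard error 0.785, adjusted p = 0.00523). The lowest deleted library still exceeded the highest wildtype one. Ccl12 was 31.3, 22.3, 3.55, 38.3 and 43.7 CPM against 0.0764 to 1.08 CPM (median 0.241). Keap1-deleted BAP 3 was the low one, yet above all wildtype libraries, and the log2 fold change was 6.20 (SE 1.52, adjusted p = 0.00348). Ccl8 also did not overlap, at 12.1 to 45.6 CPM against 0.764 to 10.6 CPM, but had a log2 fold change of 2.25 with an adjusted p of 0.0803. DESeq2 and limma-voom called Ccl8 higher. So did edgeR with library totals as scaling, with a covariate for sample titles ending in R, or with only the compared groups fitted. EdgeR without Keap1-wildtype untreated 6 also called it (adjusted p = 0.0421). Ccr2 itself was 8.84, 13.6, 37.0, 23.6 and 102 CPM against 1.57 to 5.61 CPM (median 3.30), with a log2 difference of 3.39 (standard error 0.777, adjusted p = 0.00225).

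Ligands of Ccr1, a receptor of monocytes, macrophages and other leukocytes, moved unevenly. Ccl6, a rodent myeloid chemokine, had the smallest p of all members. It was 196, 56.7, 286, 90.8 and 61.9 CPM in Keap1-deleted BAP tumours and 2.41 to 10.6 CPM (median 3.61) in Keap1-wildtype BAP tumours. Every deleted library was above every wildtype one, and the log2 fold change was 4.76 (SE 0.672, adjusted p = 0.000267). Ccl9, its neighbour on chromosome 11, was 261, 83.0, 349, 112 and 184 CPM against 1.22 to 10.2 CPM (median 2.62), a log2 difference of 5.58 (standard error 1.18, adjusted p = 0.00129). Libraries 1 and 3 were the highest for both genes. Ccl5, the T-cell and platelet chemokine RANTES, was 9.26, 3.08, 3.05, 3.46 and 2.12 CPM against 0 to 1.21 CPM, with a log2 fold change of 3.16 (adjusted p = 0.0426). This call was lost in 9 of 22 leave-one-out fits, with adjusted p up to 0.101. Ccl3 and Ccl4, the macrophage inflammatory proteins, had log2 fold changes of -0.66 and -0.10 with overlapping groups. Ccr1 was 85.8, 54.8, 93.6, 134 and 236 CPM against 5.22 to 11.1 CPM (median 6.78). The groups did not overlap, and the log2 fold change was 4.00 (adjusted p = 0.000397).

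The monocyte and macrophage receptor Cx3cr1 was 32.3, 95.5, 23.8, 211 and 226 CPM in Keap1-deleted BAP tumours and 0.829 to 4.37 CPM (median 2.47) in Keap1-wildtype BAP tumours. Its log2 fold change was 5.57 (SE 1.13, adjusted p = 0.00104). Cx3cl1, its membrane-bound ligand, overlapped at 13.1 to 60.2 CPM against 10.3 to 48.5 CPM, with a log2 fold change of 0.69 (adjusted p = 0.261). Cxcl16, also membrane-bound, was 52.5 to 120 CPM against 21.9 to 74.2 CPM, a log2 fold change of 0.97 (adjusted p = 0.0485) that was lost in 15 of the 22 fits leaving out 1 library. Its receptor Cxcr6, of tissue-resident lymphocytes, had a log2 fold change of 1.13 (adjusted p = 0.221). Xcl1, the lymphotactin of natural killer and T cells, was at most 0.845 CPM in any BAP tumour, with a log2 fold change of 5.36 (adjusted p = 0.0366), lost in 8 of those 22 fits. In Keap1-wildtype untreated tumours Xcl1 was 2.38 CPM in library 6 and at most 0.052 CPM in the other 5.

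**Figure D3:**
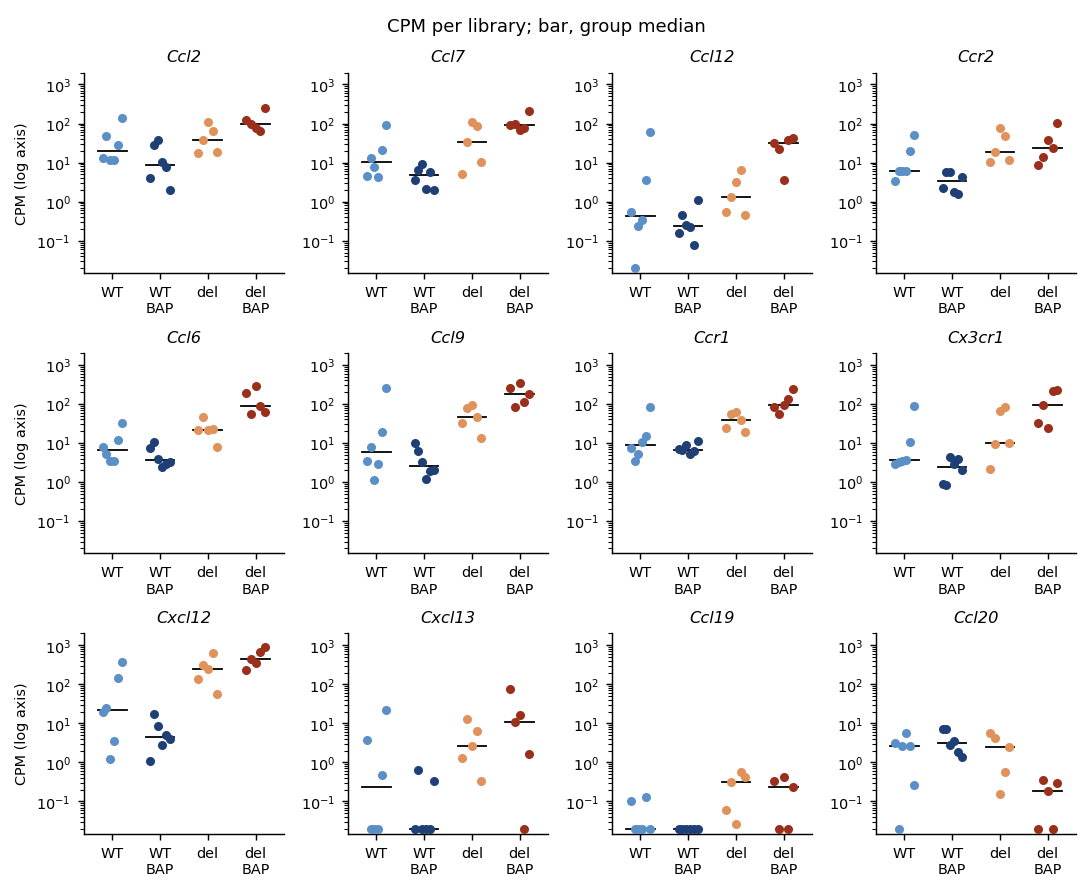
CPM per library on a log axis for 12 members in the 4 groups (WT, Keap1 wildtype; del, Keap1 deleted); each point is 1 library, the bar is the group median, and libraries at 0 are drawn at the lower edge. Ccl6, Ccl7, Ccr1 and Cxcl12 show no overlap between the 2 BAP groups, and Ccl20 lies at 0 to 0.354 CPM in Keap1-deleted BAP tumours.

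Homing chemokines of stroma and lymphoid tissue were among the largest differences. Cxcl12, the stromal ligand of Cxcr4, was 237, 456, 352, 677 and 885 CPM in Keap1-deleted BAP tumours and 1.07 to 17.6 CPM (median 4.42) in Keap1-wildtype BAP tumours. The groups were far apart, with a log2 difference of 6.33 (standard error 1.17, adjusted p = 0.0006). Cxcr4 was 29.4, 20.8, 41.0, 28.9 and 47.3 CPM against 5 to 12.4 CPM (median 7.28), a log2 difference of 2.06 (standard error 0.434, adjusted p = 0.00125). Ackr3, the atypical receptor that scavenges Cxcl12, was 107, 71.4, 70.6, 35.1 and 66.5 CPM against 8.29 to 23.1 CPM, a log2 fold change of 2.07 (adjusted p = 0.00425). All members of that axis therefore had groups without overlap. Ccl21a, made by lymphatic endothelium and lymphoid stroma, was 16.7, 148, 166, 47.2 and 4.80 CPM against 2.87 to 6.55 CPM. Library 5 lay inside the wildtype range, and the log2 fold change was 4.21 (SE 1.06, adjusted p = 0.00429). Cxcl13, the B-cell chemokine, was 78.0, 10.6, 16.7, 0 and 1.68 CPM against 0 to 0.637 CPM, a log2 difference of 6.995 (standard error 2.03, adjusted p = 0.00997), and 1 deleted library was at 0. Its receptor Cxcr5 was at most 0.392 CPM in BAP tumours and did not pass (adjusted p = 0.202). Ccl19 was at 0 in all 6 Keap1-wildtype BAP libraries and averaged 0.200 CPM in Keap1-deleted BAP tumours, where 2 of 5 were also at 0. Against a floor of 3 counts over the wildtype group, 0.0150 CPM, Ccl19 was at least 13.4-fold higher (adjusted p = 0.0144). It was at most 0.130 CPM in Keap1-wildtype untreated tumours, so the 5 libraries that made it a member were all Keap1-deleted. That call is therefore no independent support for a difference. The calls of Cxcl13 and Ccl19 were both lost under limma-voom with sample quality weights. Ccr7, the receptor of Ccl19 and Ccl21a, was 1.72, 0.632, 3.26, 1.61 and 1.89 CPM against 0.445 to 0.815 CPM, a log2 fold change of 1.52 (adjusted p = 0.0137) that rose to an adjusted p of 0.0543 without Keap1-deleted BAP 3.

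Cxcr2 ligands, which attract neutrophils, divided. Only Cxcl5 of these 4 passed: it was 176, 93.2, 5.16, 8.53 and 361 CPM in Keap1-deleted BAP tumours against 0.778 to 17.9 CPM (median 1.80), a log2 difference of 4.41 (standard error 1.36, adjusted p = 0.014). Libraries 3 and 4 lay inside the wildtype range. The same libraries were lowest for Cxcl1, at 5.12 and 3.54 CPM with the others at 33.6 to 91.6, and for Cxcl3, at 0.0826 and 3.11 CPM with the others at 6.67 to 119. For Cxcl2 they had 0.248 and 1.80 CPM, with the others at 9.96 to 14.0. Log2 fold changes between the BAP groups were 0.68 for Cxcl1, -1.43 for Cxcl2 and 2.19 for Cxcl3, with adjusted p of 0.534, 0.24 and 0.136. Cxcr2 was also lowest in libraries 3 and 4, at 7.03, 7.68, 1.63, 0.644 and 26.2 CPM, against 2.56 to 8.59 CPM in Keap1-wildtype BAP tumours (log2 fold change 0.45, adjusted p = 0.649). Summed neutrophil markers other than Cxcr2 were 34.4 and 40.5 CPM in libraries 3 and 4 and 149 to 688 CPM in the other 3, and the part of neutrophil RNA in these levels was not tested. In Keap1-wildtype BAP tumours that list summed to 561 to 8548 CPM. It holds S100a8 and S100a9, which keratinocytes also express, and Elane was at 0 in all 6 of those libraries.

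**Figure D4:**
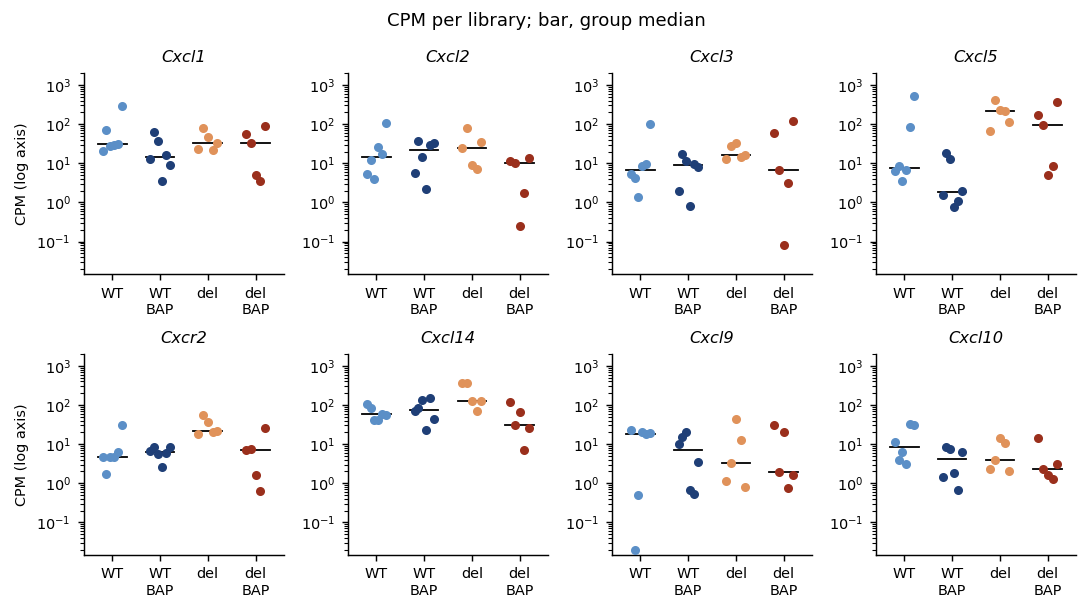
CPM per library on a log axis for the 4 Cxcr2 ligands, Cxcr2, Cxcl14, Cxcl9 and Cxcl10 in the 4 groups (WT, Keap1 wildtype; del, Keap1 deleted); points are libraries, bars are medians, and a library at 0 is drawn at the lower edge. Within the Keap1-deleted BAP group, 2 libraries are at 5.12 and 3.54 CPM for Cxcl1 and the other 3 at 33.6 to 91.6 CPM.

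Interferon-inducible ligands of Cxcr3, the receptor of effector T and natural killer cells, were not called in the main edgeR fit in any contrast. Under BAP, Cxcl9 was 30.6, 1.97, 21.0, 0.778 and 1.59 CPM in Keap1-deleted and 0.535 to 20.4 CPM in Keap1-wildtype tumours, a log2 difference of 0.41 (standard error 1.27, adjusted p = 0.822). Cxcl10 was 14.5, 2.25, 1.63, 1.29 and 3.15 CPM against 0.688 to 8.64 CPM, a log2 difference of 0.04 (standard error 0.801, adjusted p = 0.973). Cxcl11 was 0 to 5.28 CPM against 0 to 0.227 CPM (log2 fold change 4.97, adjusted p = 0.0524), and it was called higher by DESeq2, by limma-voom, with library totals as scaling and without Keap1-wildtype untreated 6 (adjusted p = 0.0219). GENCODE M21 annotates Cxcl11 as a polymorphic pseudogene, so its RNA need not encode a working ligand. Cxcr3 was at most 1.61 CPM in BAP tumours (adjusted p = 0.13). With standard errors of that size, moderate differences in Cxcl9 and Cxcl10 were not detectable with these libraries.

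Ccl20, an epithelial ligand of Ccr6 induced by IL-17, was the 1 member called lower in the main edgeR fit. It was 0, 0.354, 0.186, 0 and 0.295 CPM in Keap1-deleted BAP tumours and 1.34 to 7.11 CPM (median 3.19) in Keap1-wildtype BAP tumours. No library overlapped, and the log2 fold change was -4.52 (SE 1.24, adjusted p = 0.00714). Its receptor Ccr6 did not reach the count level for membership. Cxcl14, a chemokine of normal epithelium and stroma, was 116, 30.3, 64.8, 7.24 and 26.3 CPM against 23.2 to 154 CPM (log2 fold change -0.79, adjusted p = 0.293). Ccl27a, the skin chemokine, had a log2 fold change of -0.22 (adjusted p = 0.768), its receptor Ccr10 one of -1.66 (adjusted p = 0.151), and Ccl28 one of 0.51 (adjusted p = 0.747). Ccr9 had one of -1.64 (adjusted p = 0.087). DESeq2 called 2 members lower and limma-voom 3, with Ccl20 in both. Ccr9 was called by DESeq2 and limma-voom, and Ccr10 by limma-voom. Ccl1, Ccl11, Ccl17, Ccl22 and Ccl24, listed here under Ccr3, Ccr4 and Ccr8 of eosinophils and type 2 or regulatory T cells, were not called in the main edgeR fit. Each ligand was placed in 1 list only, so this does not cover ligands shared with receptors of other lists, such as Ccl5, Ccl7 and Ccl8. Limma-voom, and edgeR without Keap1-wildtype BAP 2, called Ccl17 and Ccl24. Ccl17 was also called by edgeR with a covariate for sample titles ending in R and with only the compared groups fitted. Ccl17 had a log2 fold change of 2.73 (adjusted p = 0.0961), Ccl22 one of 0.05 (adjusted p = 0.951), Ccl24 one of 1.44 (adjusted p = 0.38) and Ccl11 one of -1.16 (adjusted p = 0.288). Ccr3, the eosinophil receptor, had one of 1.41 (adjusted p = 0.414). Ccr4, the receptor of Ccl17 and Ccl22, had one of -1.17 (adjusted p = 0.38). Atypical receptors other than Ackr3 were not called in the main edgeR fit, where Ackr1, the venular receptor, had a log2 fold change of 2.08 (adjusted p = 0.0524). Ackr1 was called higher by DESeq2, by limma-voom and with DESeq2 size factors or library totals as scaling. It was also called higher by edgeR with a stricter expression filter, which kept 15778 genes, and in some fits leaving out 1 library.

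By position, the Ccl genes of chromosome 11 (82035571 to 83664683 in GENCODE M21, GRCm38) had 6 of 11 called higher, beside 20.3% of all genes. Of the Cxcr2 ligands side by side on chromosome 5 (90759360 to 90905938) 1 of 4 was called, and of Cxcl9, Cxcl10 and Cxcl11 (92321347 to 92365485) none of 3, counts too small to set against that share.

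Markers of several other cell types moved with these members, in a comparison where 20.3% of all genes were called higher and 20.0% lower. Between the BAP groups 9 of 10 macrophage and monocyte markers were higher and 1 was lower, and their sum was 3948 to 7854 CPM in Keap1-deleted and 338 to 798 CPM in Keap1-wildtype tumours. All 9 fibroblast markers were higher, with sums of 12090 to 37360 against 599 to 2127 CPM, as were 5 of 5 pan-leukocyte markers, at 329 to 869 against 43.3 to 81.8 CPM. Natural killer markers were higher for 7 of 9 genes. They summed to 85.0 CPM in Keap1-deleted BAP 1 and to 4.13 to 8.30 CPM in the other Keap1-deleted BAP libraries. In Keap1-wildtype BAP tumours the sums were 0.841 to 2.71 CPM, with Klre1 and Ncr1 at 0 in all 6 libraries. T-cell markers were higher for 1 of 10 genes, at 6.80 to 14.5 against 3.78 to 12.3 CPM. Mast cell and eosinophil markers were higher for 6 of 7 genes tested, B and plasma cell markers for 3 of 6, and blood endothelial markers for 1 of 8. Dendritic cell markers were higher for 5 of 9, with Ccr7 itself among them. Of 9 neutrophil markers 2 were higher and 2 lower. Of lymphatic markers 4 of 5 were higher, 1 of them Ccl21a itself, and without it the list summed to 140 to 382 against 12.0 to 76.6 CPM. Skeletal muscle genes were higher for 8 of 9, at 19.1 to 1272 against 6.93 to 80.1 CPM. All 12 keratinocyte markers were lower. The part of these cell types in the chemokine differences was not tested.

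Genes of the wider chemokine pathway were counted by list. Beside the 20.3% of all genes called higher and 20.0% lower, of 25 tested genes of signal transduction below chemokine receptors, 15 were higher and 1 lower, with a median log2 fold change of 2.23, and many of them are leukocyte genes. Dock2, a Rac activator of migrating leukocytes, had a log2 fold change of 3.30 (adjusted p = 0.00047), and Rac2 one of 3.33 (adjusted p = 0.00142). Plcb3 was lower, at -1.06 (adjusted p = 0.000908). Of 19 tested inducers of chemokine genes, 3 were higher and 4 lower, shares near those of all genes, with a median of 0.06. Il6, Irf1 and Irf7 rose, Irf7 by 3.55 (adjusted p = 0.0176). Il1a, an epithelial alarmin, fell by 4.56 (adjusted p = 0.00149) and Il17a, an inducer of Ccl20, fell by 3.66 (adjusted p = 0.0347), beside lower Stat6 and Tslp. Of 12 genes that trim or present chemokines, Ext1, Mmp2 and Mmp8 rose, and Dpp4, the protease that inactivates Cxcl12, and Sdc1 fell by 2.66 (adjusted p = 0.0051) and 2.69 (adjusted p = 0.000109). Of 3 tested chemokine genes outside the naming rule, 1 was higher and 0 lower, with a median log2 fold change of 0.72. The 1 was Pf4, with a log2 fold change of 4.896 (adjusted p = 0.000722).

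In untreated tumours the Keap1 comparison called no member, against 0.292% of all genes, under edgeR. At an unadjusted p under 0.05 there were 6 of 53 members, a smaller share than the 17.6% of all genes. DESeq2 called 4, beside 4.92% of all genes, and limma-voom 16, beside 17.7%, all higher in Keap1-deleted tumours. The smallest adjusted p was 0.0979, for Ackr4, the scavenger of Ccl19 and Ccl21, with 6.55, 33.4, 10.9, 12.8 and 3.91 CPM in Keap1-deleted and 0.618 to 5.14 CPM (median 1.31) in Keap1-wildtype tumours. Ackr1 was the 1 member without overlap (1.89% of members against 1.23% of all genes), at 4.41 to 18.5 CPM against 0.425 to 2.55 CPM, with a log2 fold change of 2.65 (adjusted p = 0.128). Without Keap1-wildtype untreated 6, 11 members were higher, 20.8% of members against 8.64% of all genes. These were Ackr2, Ackr3, Ackr4, Ccl21a, Ccl6, Ccl7, Ccl9, Ccr1, Cx3cr1, Cxcr2 and Cxcr4.

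Library 6 of the Keap1-wildtype untreated group sat beside or above the Keap1-deleted libraries for many myeloid and stromal members. Ccl9 was 262 CPM there and 1.14 to 19.6 CPM in the other 5, while Keap1-deleted untreated tumours had 32.3, 79.4, 93.4, 45.7 and 13.1 CPM. The log2 fold change of Ccl9 was 0.09 (adjusted p = 0.969) with that library and 2.90 (SE 0.729, adjusted p = 0.0145) without it. Ccr1 was 84.5 CPM there, 3.52 to 15.5 CPM in the other 5 and 24.2, 55.9, 63.1, 39.3 and 19.2 CPM in Keap1-deleted tumours. Its log2 fold change was 0.93 with the library and 2.26 (adjusted p = 0.00395) without it. Cxcr2 was 30.9 CPM there and 1.72 to 6.42 CPM in the other 5, against 18, 56.6, 35.8, 21.0 and 21.9 CPM in Keap1-deleted tumours (log2 fold change 2.80 without it, adjusted p = 0.0126). Ccl12 at 61.4 CPM, Cxcl5 at 525 CPM and Ccl21a at 269 CPM were also the highest of that group. Summed macrophage markers were 5689 CPM and fibroblast markers 34640 CPM in that library, the top of its group for both, and their part was not tested.

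BAP against no BAP gave no member call in Keap1-wildtype tumours, where edgeR called 0% of all genes. Of 53 members, 22 had an unadjusted p under 0.05 in edgeR, beside 13.7% of all genes. Without Keap1-wildtype untreated 6 the count fell to 6, so most of it depended on that 1 library, and limma-voom also gave 6. DESeq2 called 12 lower, beside 4.51% of all genes, and limma-voom none. The median log2 fold change was -1.39 over members and -0.085 over all genes, and without library 6 it was -0.57 over members. Ccr7 was the 1 member with groups apart, at 0.445 to 0.815 CPM with BAP and 0.962 to 5.03 CPM without (log2 fold change -2.10, adjusted p = 0.145).

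Within Keap1-deleted tumours BAP went with higher Ccl6 and lower Ackr4 and Cxcl14, which is 1.89% of members higher against 0.943% of all genes and 3.77% lower against 5.16%. Ccl6 was 21.9, 46.8, 21.2, 23.0 and 7.99 CPM without BAP and 56.7 to 286 CPM with it, a log2 difference of 2.52 (standard error 0.654, adjusted p = 0.0292). Ackr4 was 0.537 to 1.42 CPM with BAP and 3.91 to 33.4 CPM without, with no overlap and a log2 difference of -3.62 (standard error 0.824, adjusted p = 0.0207). Cxcl14 was 374, 356, 127, 69.9 and 127 CPM without BAP and 7.24 to 116 CPM with it, overlapping, with a log2 difference of -2.10 (standard error 0.621, adjusted p = 0.0479). The calls were lost in 5, 2 and 16 of the 22 fits leaving out 1 library, respectively. Without Keap1-deleted BAP 4 no member was called, without the library labelled Keap1-deleted BAP 2 Ackr4 and Ccl6 were, and Cxcl14 was not when libraries were scaled by their totals alone. Under that scaling 26.7% of all called genes were higher, against 15.4%. Keratinocyte markers summed to 2381 to 56650 CPM in Keap1-deleted untreated tumours and to 86.4 to 4100 CPM with BAP, and their part in these 3 calls was not tested.

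The interaction asks whether the Keap1 difference was larger under BAP. It called 5 members, all higher: Ccl12, Ccl6, Ccl9, Ccr1 and Cxcl12, or 9.43% of members against 2.47% of all genes, and none was lower against 4.47%. The difference between the log2 fold changes was 8.404 for Ccl12 (SE 2.03, adjusted p = 0.0299), 3.58 for Ccl6 (SE 0.867, adjusted p = 0.0299), 5.49 for Ccl9 (SE 1.52, adjusted p = 0.0377), 3.07 for Ccr1 (SE 0.899, adjusted p = 0.0452) and 4.76 for Cxcl12 (SE 1.44, adjusted p = 0.0496). Without Keap1-wildtype untreated 6 the differences were 4.87 for Ccl12, 2.83 for Ccl6, 2.68 for Ccl9, 1.75 for Ccr1 and 3.51 for Cxcl12, and Ccl12 and Ccl6 were the 2 members called, and without any of Keap1-deleted untreated 1, 2 or 5 or Keap1-deleted BAP 4 no member was. Without the library labelled Keap1-deleted BAP 2, Cxcl12 was lost. Scaled by library totals alone, the median of all genes moved from 0.099 to 0.434, 62.2% of all called genes were higher against 35.6%, and 7 members were called. Macrophage markers moved the same way, with 6 of 10 called higher in the interaction, and keratinocyte markers the other way, with 6 of 12 lower. Their part in the interaction was not tested.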

How the data were processed

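The authors deposited 1 table of expected counts per tumour, with an effective length for each of 56748 gene IDs that was the same in every file. The expected counts were whole numbers in all files (tolerance 1e-09). Frozen tumours were pulverised and sequenced as paired ends, per the labels' protocols. Column names are those of RSEM, per the file headers. Aligner, build and annotation: not given in the sources used here. Symbols came from a reference table and matched 52073 IDs holding 99.4% of counts. Total counts were 29235010 to 39862777, and no pair of libraries agreed within sampling noise. The edgeR 4.0.16 quasi-likelihood test (R 4.3.3, TMM scaling, filterByExpr with a minimum count of 10, all 4 groups in 1 fit) was adjusted by Benjamini-Hochberg over 19202 genes, with calls at 0.05. CPM are TMM-scaled. Alternatives used limma 3.58.1, DESeq2 1.42.0, other scalings, filters and sample sets, and each library left out. The scripts were tested on simulated data. Members, gene lists and alternatives were chosen with earlier results of these data known. Every member could be named. Values in every library are given for up to 8 called members per contrast with the smallest p and for fixed ligand and receptor pairs, and non-members come from the lists. The values of 1 member and the name of 1 marker are not reported here.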

Additional observations from a re-analysis of the deposited data

Results flagged for a closer look

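Values standing apart from their group by Dixon's criterion on log2(CPM + 0.5) were sought in 160 groups of libraries over 40 members, and 5 were found, where chance marks about 1 in 20 groups. Ccl12 was 3.55 CPM in Keap1-deleted BAP 3, against 22.3 to 43.7 CPM in the other 4. In Keap1-wildtype untreated 6, Cx3cr1 was 87.6 CPM against 2.82 to 10.7 CPM in the others, and Cxcl11 was 25.0 CPM against 0 to 0.909 CPM. Cxcl11 was 0.227 CPM in Keap1-wildtype BAP 1 and 0 to 0.0326 CPM in the other 5. Cxcr6 was 0 CPM in Keap1-wildtype untreated 2 and 2.24 to 6.21 CPM in the others.

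For 5 members the Keap1 difference itself differed between BAP and untreated tumours by the interaction term. On the log2 scale the difference was 8.404 for Ccl12, 3.575 for Ccl6, 5.492 for Ccl9, 3.07 for Ccr1 and 4.761 for Cxcl12. Without Keap1-wildtype untreated 6 these were 4.87, 2.83, 2.68, 1.75 and 3.51, and of the 5 only Ccl12 and Ccl6 were still called.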

How the results depend on the processing

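No paired analysis was possible because the labels give no replicate numbers shared between groups. For Keap1 deletion under BAP, 17 to 24 members were called when each library was left out, 17 to 21 of them among the original 21. In untreated tumours the count of 0 became 4 with DESeq2, 16 with limma-voom and 11 without both Keap1-wildtype untreated 6 and the library labelled Keap1-deleted BAP 2, and 0 to 11 leaving out 1 library. The count of 0 for BAP in Keap1-wildtype tumours became 12 with DESeq2, and was 0 in each fit leaving out 1 library. For BAP in Keap1-deleted tumours the count of 3 became 6 with DESeq2, 18 with limma-voom, 1 with no filter on low counts, 6 with a covariate for titles ending in R and 5 without those 2 libraries, and 0 to 6 leaving out 1 library. The interaction count of 5 became 14, 3, 0, 14 and 3 under the same settings, and 0 to 9 leaving out 1 library. The 3 with limma-voom (Ccl5, Cxcl14 and Cxcr2) held none of the original 5, and 2 of them were lower. Members kept their sign, in the contrast that called them, in every fit run. Members that were not called could change sign: in untreated tumours, leaving out Keap1-wildtype untreated 6 moved Ccl12 from -2.20 to 1.33 and Cxcl11 from -1.64 to 2.51 on the log2 scale. Over all genes, the 56 calls in untreated tumours became 944 with DESeq2, 3395 with limma-voom, 28 with the covariate and 2530 without those 2 libraries. BAP in Keap1-deleted tumours gave 1172 calls, and 2112, 3764 and 398 with DESeq2, limma-voom and no filter. The interaction gave 1333, and 3008, 111 and 3021 with DESeq2, no filter and the covariate. The cause was not tested.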
